A study of Mus musculus with 6 samples.

Results

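The 9 genes Lss, Cyp51, Tm7sf2, Msmo1, Nsdhl, Hsd17b7, Ebp, Sc5d and Dhcr7 encode enzymes that make lanosterol and carry it through its ring reactions to cholesterol. They were matched by symbol in GENCODE M21, an annotation of the mouse genome build GRCm38, and all 9 were found among the 35709 genes of the table. The study measured RNA by Illumina sequencing in 3 samples of AML12 cells given an siRNA against Uhrf2 (siUhrf2) and 3 given a scrambled siRNA (siCtrl), each for 72 h with the transfection reagent Lipofectamine RNAiMAX. AML12 is a non-tumorigenic mouse hepatocyte line, derived from the liver of a mouse carrying a transgene for human transforming growth factor alpha. Both groups are the same line, and the labels call the siCtrl samples wild type. Uhrf2 encodes a ubiquitin ligase that binds modified DNA. Nothing in the labels ties the samples of a group to different cultures, and the spread behind every p-value is that between samples, possibly of technical origin only.

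Lanosterol is the first sterol of the pathway. The enzymes after it remove methyl groups and move and reduce double bonds in the ring. The Bloch and Kandutsch-Russell orders of these reactions differ in when the double bond of the side chain is reduced. Both orders use the same ring enzymes, so none of the 9 genes belongs to 1 branch alone. The liver is a main site of cholesterol synthesis, and the transcription factor SREBP-2, which is activated when membrane sterol is low, is known to induce the genes of this pathway. NF-Y, which binds CCAAT boxes, and SP1, which binds GC boxes, are known partners of SREBP-2 at such promoters.

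Promoters of 5 genes are shown because these hold the largest and the smallest change (Lss, Ebp), the highest level after knock-down (Cyp51) and the pair of enzymes that share a reaction (Tm7sf2, Lbr). Each covers the 250 bases before the transcription start in RefSeq (GRCm38.p6), read 5′ to 3′ on the gene's strand. RefSeq starts can differ from the GENCODE gene spans given below. The Tm7sf2 and Lbr windows lie wholly inside the GENCODE spans of these genes, and the Lss and Cyp51 windows partly inside. Capitals mark CCAAT boxes, written CCAAT on this strand or ATTGG where the box lies on the other strand. Lss and Cyp51 each hold 1 box, Tm7sf2 holds 1, Lbr holds 2 and Ebp holds 2.
Lss (chr10:76531355-76531604, plus strand): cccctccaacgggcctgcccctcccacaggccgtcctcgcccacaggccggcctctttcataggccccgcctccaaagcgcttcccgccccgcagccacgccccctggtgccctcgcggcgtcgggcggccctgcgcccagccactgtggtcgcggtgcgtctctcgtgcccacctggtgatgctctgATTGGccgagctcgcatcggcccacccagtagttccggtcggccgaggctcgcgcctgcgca
Cyp51 (chr5:4104698-4104947, minus strand): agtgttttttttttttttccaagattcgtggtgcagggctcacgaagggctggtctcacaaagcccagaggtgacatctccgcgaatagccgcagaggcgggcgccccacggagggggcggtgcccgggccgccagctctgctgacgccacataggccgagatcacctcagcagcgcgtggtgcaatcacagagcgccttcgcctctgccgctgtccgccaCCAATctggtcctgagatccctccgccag
Tm7sf2 (chr19:6067851-6068100, minus strand): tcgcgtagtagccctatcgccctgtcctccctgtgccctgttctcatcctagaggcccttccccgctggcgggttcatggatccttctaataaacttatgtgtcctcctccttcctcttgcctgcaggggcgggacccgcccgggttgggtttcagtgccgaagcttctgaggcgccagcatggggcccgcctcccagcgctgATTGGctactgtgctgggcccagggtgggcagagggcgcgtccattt
Lbr (chr1:181842402-181842651, minus strand): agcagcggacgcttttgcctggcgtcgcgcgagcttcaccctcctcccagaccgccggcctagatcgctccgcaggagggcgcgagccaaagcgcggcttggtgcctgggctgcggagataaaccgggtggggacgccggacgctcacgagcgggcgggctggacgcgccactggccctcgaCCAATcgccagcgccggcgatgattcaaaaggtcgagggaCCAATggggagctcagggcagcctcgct
Ebp (chrX:8193513-8193762, minus strand): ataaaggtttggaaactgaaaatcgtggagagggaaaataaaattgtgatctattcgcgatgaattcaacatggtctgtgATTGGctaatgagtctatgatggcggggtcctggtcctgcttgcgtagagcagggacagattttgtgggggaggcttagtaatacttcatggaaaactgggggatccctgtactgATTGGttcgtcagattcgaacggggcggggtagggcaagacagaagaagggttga

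All 9 genes matched RefSeq, with 11 promoter entries because Dhcr7 has 3 start sites. A CCAAT box (CCAAT, on either strand) stood in 9 of the 11 entries (81.8%), at least 1 for each of the 9 genes, against 35.9% of the 11345 promoter entries of the genes tested and 33.85% of all 32851 entries. A GC box (GGGCGG, either strand) stood in 10 of 11 (90.9%), against 58.6% of the entries of genes tested and 32.7% of all entries. The E-box CACGTG stood in 3 of 11 (27.3%), in Hsd17b7, Sc5d and Dhcr7, against 8.45% of the entries of genes tested and 6.02% of all entries. The sterol-element letters TCACNCCAC, searched on both strands, stood in 0 of 11 entries and in 1.07% of the entries of genes tested, which says only that these letters are not in these windows. No match of 1 motif overlapped a match of another in these entries. The GC content of the 11 windows had a median of 63.2%, against 60.0% for the genes tested. In Lss the CCAAT box lay 62 to 58 bases before the start, in Tm7sf2 47 to 43 bases, in Cyp51 29 to 25 bases and in Sc5d 24 to 20 bases. Hsd17b7 and Msmo1 held 3 boxes each. The Ebp boxes lay 170 to 166 and 55 to 51 bases before the start, and the Lbr boxes 68 to 64 and 28 to 24. A match describes the letters and shows no binding.

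Values are the authors' normalized counts unless FPKM, which divides by gene length and library depth, is named. Uhrf2, the target of the siRNA, on chr19:30030513-30093722 (plus strand), stood at 2942, 2805 and 2777 in siUhrf2 and at 8899, 9058 and 9018 in siCtrl, a log2 change of -1.66 (SE 0.034) with adjusted p = 7.58e-11, so every library matched its label. Depth, estimated from what 1 read was worth, was 44.6 to 53.1 M reads per library, and the lowest value of any of the 9 genes rested on about 670 reads. Across genes, replicate 1 stood apart in both groups: pairs with it had a chi-square per degree of freedom of 7.95 to 12.7, against 3.21 between siUhrf2 replicates 2 and 3 and 4.38 between siCtrl replicates 2 and 3. Of the hepatocyte markers, Trf averaged 911 FPKM and Hnf4a 83.4 FPKM over the 6 libraries, while Alb at 0.61 FPKM and Apoa1 at 0.13 FPKM were near absent. The 8 hepatocyte markers summed to 3009 to 3203 FPKM in siUhrf2 and 2534 to 2753 FPKM in siCtrl, with 3 of the 6 tested higher (Hnf4a, Krt8, Krt18) and 2 lower (Trf, Afp). The higher sum came from the keratins. Krt8 averaged 1033 FPKM in siUhrf2 and 723 FPKM in siCtrl, and Krt18 1168 and 838 FPKM, while Trf averaged 804 and 1017 FPKM. Ttr, at 3.56 FPKM in siUhrf2 and 6.13 FPKM in siCtrl, was not called. Alb, at 0.47 and 0.75 FPKM, was too low to be tested. The 5 macrophage and leukocyte markers summed to 2.92 to 3.79 FPKM in siUhrf2 and 7.46 to 9.18 FPKM in siCtrl, with Adgre1 at 0 throughout. The 2 tested were lower, Csf1r by a log2 change of -1.42 (limma adjusted p = 1.53e-06) and Cd68 by -1.20 (limma adjusted p = 7.71e-05). Ptprc at 0.11 FPKM and Lyz2 at 0.016 FPKM were near absent. Fibroblast markers, 5 in number, summed to at most 1.33 FPKM and 4 endothelial markers to at most 3.39 FPKM in any library. The part of these markers in the results was not tested.

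All 9 genes were higher after Uhrf2 knock-down (limma adjusted p under 0.05 over 11343 genes), with a median log2 change of 1.01 against -0.01 for all genes tested. Higher calls were common in this comparison, at 29.9% of genes tested, beside 31.1% lower and 61.0% in either direction. Of the 9, 7 were called and at least 1.5-fold higher, which 3.83% of genes tested were. A rise of at least 2-fold was called for 5, Lss, Cyp51, Tm7sf2, Msmo1 and Nsdhl, against 1.11% of genes tested. Without siCtrl replicate 1, Tm7sf2 was 1.98-fold and Msmo1 1.96-fold higher, so 3 and not 5 genes then passed 2-fold. The groups did not overlap in any of the 9, against 32.5% of genes tested that were higher without overlap. In bulk RNA, more RNA per cell and more cells that express a gene cannot be told apart.

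**Figure D1:**
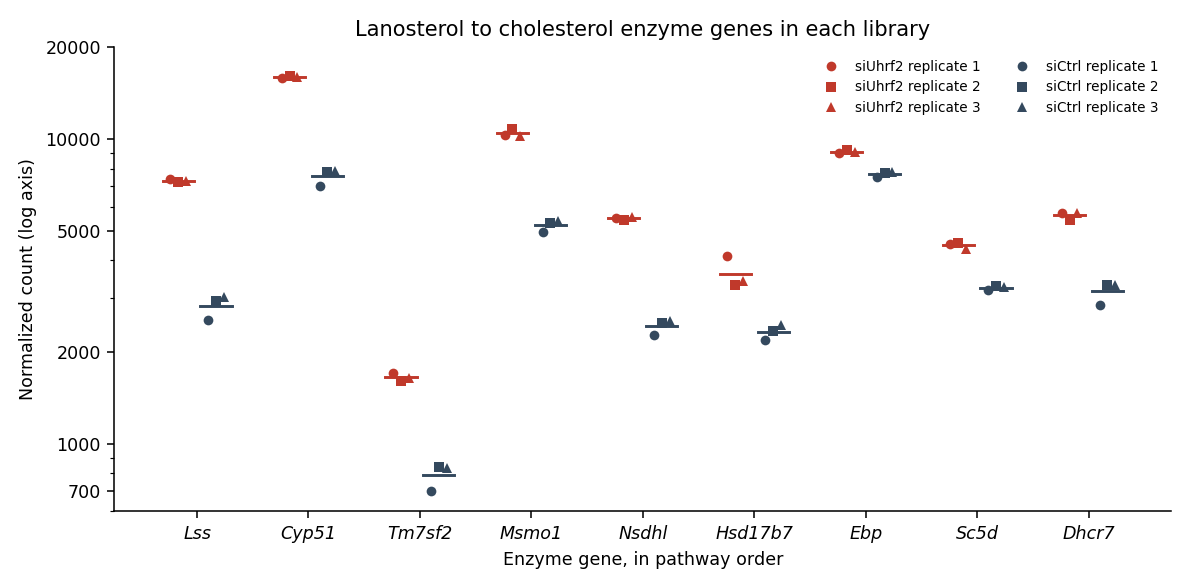
Normalized count (log axis) of each enzyme gene in each library, in pathway order; each point is 1 library, its shape gives the replicate number, and bars are group means. The siUhrf2 libraries of all 9 genes lie above the siCtrl libraries, by 2.58-fold in Lss and 1.18-fold in Ebp.

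Lss, on chr10:76531588-76557138 (plus strand), encodes lanosterol synthase, which folds the epoxide of squalene into lanosterol. It stood at 7378, 7226 and 7284 in siUhrf2 and at 2554, 2939 and 3020 in siCtrl. The siUhrf2 libraries lay close together, siCtrl replicate 1 was the lowest of its group, and the groups did not overlap. The means were 7296 ± 76.6 in siUhrf2 and 2838 ± 249 in siCtrl (SD, n = 3 each), a log2 change of 1.37 (SE 0.056, adjusted p = 2.94e-08) or 2.58-fold. Only 0.406% of the genes tested had a larger log2 change, and none of the other 8 enzymes did.

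Cyp51, on chr5:4081145-4104746 (minus strand), encodes the cytochrome P450 that removes the methyl group at carbon 14, the first step after lanosterol. It stood at 15894, 16126 and 16023 in siUhrf2 and at 7015, 7805 and 7840 in siCtrl. Again siCtrl replicate 1 was lowest and the groups did not overlap. Its log2 change was 1.09 (SE 0.042, adjusted p = 4.93e-09), or 2.12-fold. Cyp51 shares 166 exonic bases with Akap9 on the opposite strand, and the use of strand in counting is not known here. Akap9 had a log2 change of 0.07 (adjusted p = 0.158) and was not called.

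Tm7sf2, on chr19:6062821-6068373 (minus strand), encodes a reductase of the carbon 14 double bond that Cyp51 leaves behind. It stood at 1709, 1612 and 1647 in siUhrf2 and at 701, 841 and 833 in siCtrl, so every siUhrf2 library was above every siCtrl library. On the log2 scale the change was 1.07 (SE 0.069, adjusted p = 2.13e-07), or 2.10-fold. Its exons share 532 bases with Vps51 on the same strand, so reads could be split between them. Vps51, at 56.0 FPKM over the 6 libraries, had a log2 change of 0.07 (adjusted p = 0.140) and was not called.

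Msmo1, Nsdhl and Hsd17b7 act in turn on the carbon 4 methyl groups: Msmo1 oxidizes them, Nsdhl removes the carboxyl group that results, and Hsd17b7 reduces the ketone. Msmo1, on chr8:64718139-64733792 (minus strand), stood at 10345, 10812 and 10208 in siUhrf2 and at 4948, 5296 and 5379 in siCtrl. Nsdhl, on chrX:72918557-72958514 (plus strand), stood at 5513, 5417 and 5560 in siUhrf2 and at 2275, 2499 and 2520 in siCtrl. In both genes the siUhrf2 libraries lay close together, siCtrl replicate 1 was lowest of its group, and the groups did not overlap. The log2 change was 1.01 (SE 0.039, adjusted p = 4.93e-09, 2.01-fold) for Msmo1 and 1.18 (SE 0.042, adjusted p = 3.31e-09, 2.26-fold) for Nsdhl.

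Hsd17b7, on chr1:169949535-169969241 (minus strand), stood at 4121, 3327 and 3408 in siUhrf2 and at 2190, 2345 and 2445 in siCtrl. Here siUhrf2 replicate 1 was well above the other siUhrf2 libraries, the groups still did not overlap, and the CV of 12.1% within siUhrf2 was the largest of any of the 9 genes in either group. This gave a log2 change of 0.63 (SE 0.083, adjusted p = 0.00031), or 1.55-fold. Without siUhrf2 replicate 1 it was 0.53, or 1.45-fold, under the 1.5-fold line, so 6 genes and not 7 then passed it.

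Ebp, on chrX:8185329-8193512 (minus strand), encodes the isomerase that moves the ring double bond from carbon 8 towards carbon 7. It stood at 8976, 9187 and 9082 in siUhrf2 and at 7517, 7752 and 7788 in siCtrl, with no overlap. Its log2 change of 0.24 (SE 0.031, adjusted p = 3.68e-05), or 1.18-fold, was the smallest of the 9. A larger log2 change was found in 18.2% of genes tested.

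Sc5d, on chr9:42251595-42264256 (minus strand), encodes the desaturase that adds the ring double bond at carbon 5. It stood at 4509, 4572 and 4348 in siUhrf2 and at 3203, 3304 and 3261 in siCtrl, again without overlap. Sc5d changed by a log2 of 0.46 (SE 0.035, adjusted p = 6.90e-07), or 1.37-fold. Dhcr7, on chr7:143823145-143848410 (plus strand), encodes the reductase of the double bond at carbon 7, the final ring step. It stood at 5732, 5411 and 5699 in siUhrf2 and at 2843, 3324 and 3317 in siCtrl, without overlap and with siCtrl replicate 1 lowest. The log2 change was 0.83 (SE 0.058, adjusted p = 1.53e-06), or 1.78-fold.

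In pathway order, the first 5 genes changed by a log2 of 1.01 to 1.37 and the last 4 by 0.24 to 0.83, a difference in order that was not tested. The cut lies where the values part, between the carbon 4 enzymes Nsdhl and Hsd17b7, so the ranges are apart by that choice. Over all 36 pairs of the 9 genes, the difference between log2 changes was largest for Lss over Ebp, at 1.12 (SE 0.062), and smallest for Cyp51 over Tm7sf2, at 0.02 (SE 0.045). In an exact two-sided permutation test of the per-library log2 ratio, adjusted p-values over the 36 pairs were 0.116 to 0.80, and with 3 libraries against 3 the unadjusted p cannot go below 0.10. siCtrl replicate 1 was the lowest siCtrl library in 9 of 9 genes, against 45.2% of all genes tested, with a median deficit of 9.34% within the group. Without replicate 1 of both groups all 9 remained called, 6 passed 1.5-fold and 3 passed 2-fold.

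Per length, the order of the levels differed between groups. In siUhrf2 it ran Cyp51 at 219 FPKM, Ebp 186 FPKM, Msmo1 136 FPKM, Dhcr7 88.6 FPKM, Nsdhl 70.7 FPKM, Lss 53.3 FPKM, Hsd17b7 39.4 FPKM, Sc5d 38.1 FPKM and Tm7sf2 30.0 FPKM, with Hsd17b7 and Sc5d overlapping and all other neighbours apart. In siCtrl it ran Ebp at 159 FPKM, Cyp51 104 FPKM, Msmo1 68.5 FPKM, Dhcr7 50.3 FPKM, Nsdhl 31.5 FPKM, Sc5d 27.9 FPKM, Hsd17b7 25.6 FPKM, Lss 20.9 FPKM and Tm7sf2 14.5 FPKM, with no neighbours overlapping. Cyp51 thus led in siUhrf2 and Ebp in siCtrl, while Lss stood above Sc5d and Hsd17b7 in siUhrf2 and below them in siCtrl. The 9 genes summed to 862 ± 13.0 FPKM in siUhrf2 and 503 ± 21.8 FPKM in siCtrl (SD, n = 3 each). Of that sum Ebp held 21.6% in siUhrf2 and 31.7% in siCtrl, Cyp51 25.5% in siUhrf2 and 20.8% in siCtrl, and Lss 6.19% in siUhrf2 and 4.16% in siCtrl. The highest level was 7.31 ± 0.266 times the lowest in siUhrf2 and 11.0 ± 0.945 times in siCtrl (SD, n = 3 each).

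**Figure D2:**
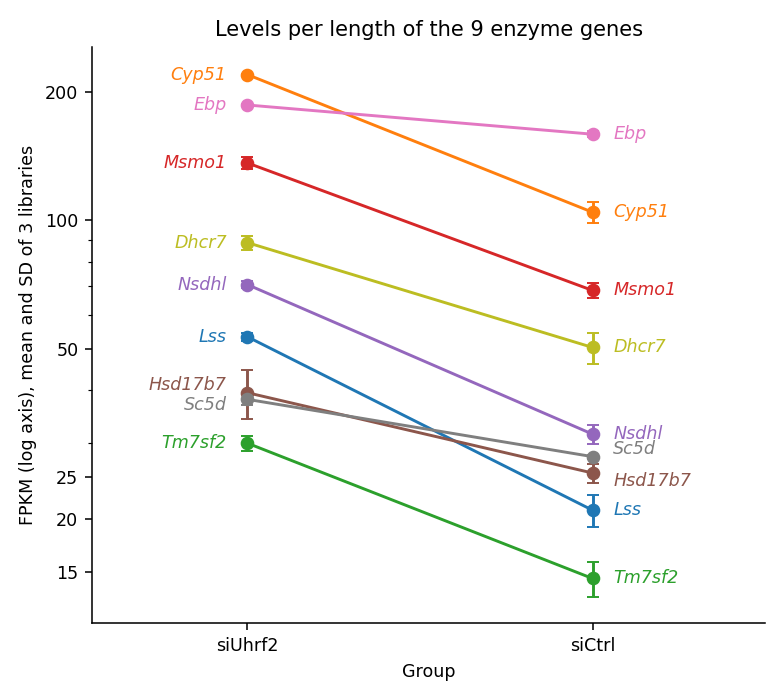
Mean FPKM (log axis) of each enzyme gene in siUhrf2 and siCtrl; error bars are SD of 3 libraries. Cyp51 (219 FPKM) and Ebp (186 FPKM) lead in siUhrf2, Ebp (159 FPKM) and Cyp51 (104 FPKM) in siCtrl.

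The carbon 14 step has a second reductase, Lbr, which also anchors chromatin at the nuclear envelope. Lbr, on chr1:181815335-181843046 (minus strand), stood at 3920, 4207 and 4043 in siUhrf2 and at 3512, 3872 and 3834 in siCtrl. The groups did not overlap, but siUhrf2 replicate 1 lay just above siCtrl replicate 2. Its log2 change of 0.12 (SE 0.044, adjusted p = 0.036) was 1.09-fold. That call was lost without siUhrf2 replicate 2 (adjusted p = 0.142), without siUhrf2 replicate 3 (adjusted p = 0.080) and without siCtrl replicate 1 (adjusted p = 0.140), and also in limma without trend and robust variances (adjusted p = 0.089).

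Between the carbon 14 reductases, the FPKM ratio of Tm7sf2 to Lbr was 0.426 ± 0.027 in siUhrf2 and 0.220 ± 0.011 in siCtrl (SD, n = 3 each). The log2 ratio differed by 0.95 (SE 0.067), the groups did not overlap, and the exact two-sided permutation p was 0.10, the smallest this design allows (adjusted over 6 ratios, 0.12). Per length, Tm7sf2 was the less abundant of the pair in both groups. The printed promoters of both genes hold CCAAT boxes, 1 in Tm7sf2 and 2 in Lbr.

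Within the carbon 4 unit, the FPKM ratio of Nsdhl to Hsd17b7 was 1.81 ± 0.199 in siUhrf2 and 1.23 ± 0.021 in siCtrl, a log2 difference of 0.55 (SE 0.096). The ratio of Msmo1 to Nsdhl was 1.93 ± 0.084 in siUhrf2 and 2.17 ± 0.029 in siCtrl, a log2 difference of -0.17 (SE 0.038). Both had an exact permutation p of 0.10 (adjusted 0.12) and no overlap. Of the 3 enzymes of this unit, Nsdhl had the largest log2 change and Hsd17b7 the smallest.

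**Figure D3:**
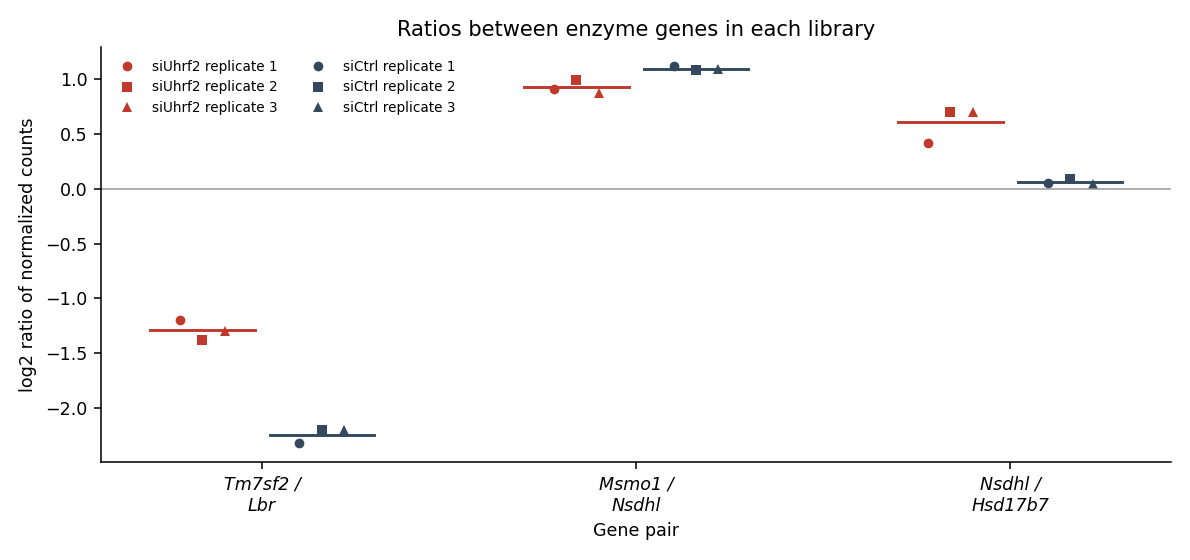
log2 ratio of normalized counts of 3 gene pairs in each library; points are libraries, shapes give the replicate number and bars are group means. The siUhrf2 and siCtrl libraries are apart for all 3 pairs, by 0.95 for Tm7sf2 over Lbr.

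Proteins that hold or feed these enzymes had log2 changes of -0.14 to 0.40. Erg28, which tethers the carbon 4 enzymes to one another, had a log2 change of 0.40 (1.32-fold, adjusted p = 3.64e-05). Por, the reductase that hands electrons to Cyp51, changed by 0.26 (1.20-fold, adjusted p = 0.0001), and Cyb5a, the cytochrome b5 that serves the oxidases and Sc5d, by 0.30 (1.23-fold, adjusted p = 1.82e-05). Cyb5r3, which reduces cytochrome b5, fell by 0.14 on the log2 scale (0.906-fold, adjusted p = 0.0018). Cyb5b, the mitochondrial cytochrome b5 (log2 change -0.06, adjusted p = 0.149), and Cyb5r1, a relative of Cyb5r3 (0.00, adjusted p = 0.996), were not called. Without siUhrf2 replicate 1, Cyb5b was called at -0.09 (adjusted p = 0.013). The heme-binding protein Pgrmc2 changed by 0.22 (adjusted p = 0.0041). Its relative Pgrmc1, which binds cytochromes P450, had a log2 change of -0.08 (adjusted p = 0.049), a call lost under 11 of 18 alternatives, among them each of the 6 with 1 library left out (adjusted p = 0.056 to 0.168). Of these 8 genes, 4 were higher, 2 lower and 2 not called. Over all genes tested 29.9% were higher, 31.1% lower and 61.0% called either way.

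Relatives of the enzymes that act outside this route were set beside them. Of 12 listed, 10 matched the table and 6 passed the mean of 1 FPKM, with 4 higher and 2 lower, beside 29.9% higher and 31.1% lower over all genes tested. Hsd17b11, a relative of Hsd17b7 that localizes to lipid droplets, stood at 1407, 1412 and 1382 in siUhrf2 and at 2296, 2446 and 2510 in siCtrl, a log2 change of -0.79 (SE 0.045, adjusted p = 7.94e-08). Agmo, an alkylglycerol monooxygenase of the same superfamily as Sc5d and Msmo1, had a log2 change of -0.52 (adjusted p = 0.0013). Hsd17b10 (0.33), Hsd17b12 (0.26) and Tmem97 (0.25), a relative of Ebp, were higher, and Hsd17b4 (0.08, adjusted p = 0.048) lost its call under 9 alternatives, including each single library left out but siCtrl replicate 1 (adjusted p = 0.054 to 0.177). None of the 6 rose by 1.5-fold or more. Ebpl, Tm6sf2, Ch25h and Fa2h averaged under 1 FPKM.

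**Figure D4:**
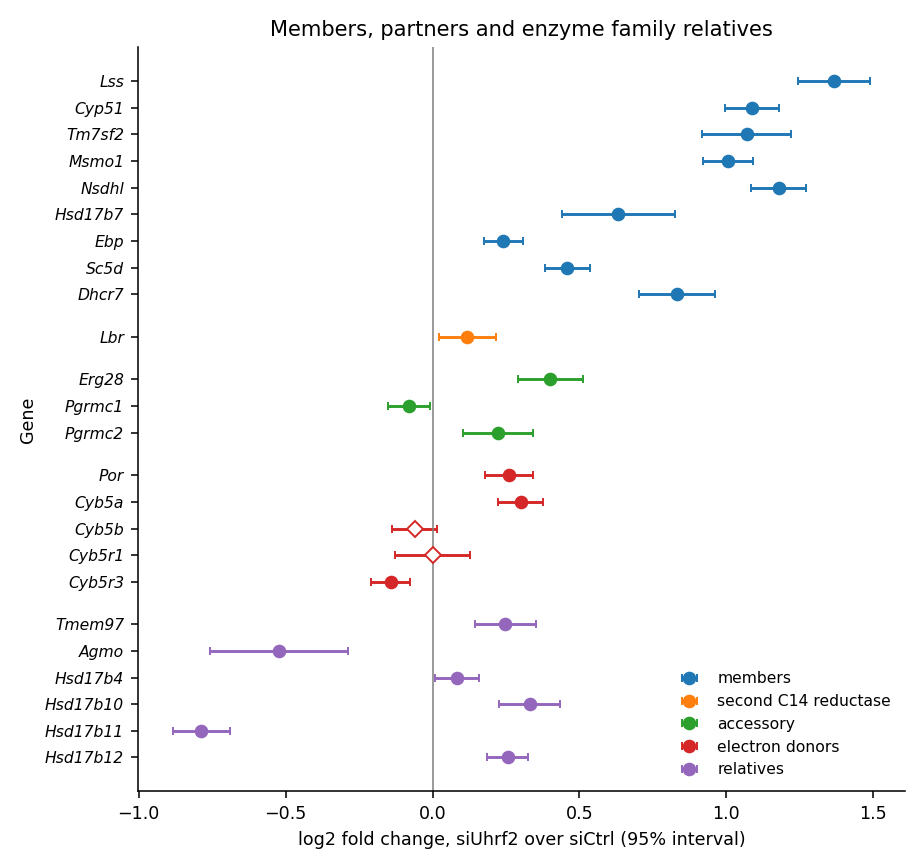
log2 fold change of siUhrf2 over siCtrl for the 9 enzyme genes, Lbr, accessory proteins, electron donors and family relatives; bars are 95% intervals, filled circles are called and open diamonds are not. The 9 enzyme genes run from 0.24 to 1.37, and Hsd17b11 is lowest at -0.79.

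The mevalonate and squalene arm, which feeds Lss, had 10 of 10 genes higher (29.9% of all genes tested were), with a median log2 change of 1.08 beside 1.01 for the 9 enzymes and -0.01 for all genes. Its largest changes were in Pmvk (1.46, 2.74-fold), which phosphorylates phosphomevalonate, Fdps (1.36, 2.57-fold), which makes farnesyl diphosphate, and Mvd (1.30, 2.47-fold), which decarboxylates diphosphomevalonate. Of 9 genes around SREBP control, 6 were higher, 0 lower and 3 not called, with a median of 0.29. Over all genes tested 29.9% were higher, 31.1% lower and 61.0% called either way. The largest change was in Insig1 (1.57, 2.97-fold), which retains SREBP in the endoplasmic reticulum.

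The genes outside these lists with profiles closest to the mean of the 9 were taken by the smallest root mean square difference of centred log2 values over the 6 libraries, among 9008 genes of at least 5 FPKM. Among the 5 closest were Add2 (0.036 log2 units, log2 change 0.82), Fyttd1 (0.055, log2 change 0.95), Ppp2r1a (0.056, log2 change 0.97) and Zfp934 (0.056, log2 change 0.88). By the same measure Dhcr7 lay nearest to the mean of the 9, at 0.040, and Ebp farthest, at 0.319. Each of the 9 is itself part of that mean, which lowers its distance, so these values do not compare evenly with those of outside genes. The 6 libraries are the same that give the log2 changes, so the measure holds both the difference between groups and the spread within them.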

How the data were processed

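Total RNA of 6 AML12 samples, 3 siUhrf2 and 3 siCtrl, was sequenced; groups and replicate numbers come from the sample titles. The authors deposited 1 table holding for each gene 6 normalized counts (a signal scale) and 6 FPKM values, per the file headers. Tools and build in the submitters' processing notes are kallisto 0.44.0, edgeR and GRCm38.p6, with no role stated. What 1 read was worth (0.922 to 1.09 units) was read from the most frequent low values. Between 62.8% and 64.7% of values were whole reads within 0.01, so the table was not treated as counts: an edgeR count test foreseen for whole counts was not run.

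limma 3.58.1 (R 4.3.3, statmod 1.5.0) with trend and robust variances was fitted to log2(normalized count + 1), computed from the deposited values, for 11343 genes averaging 1 FPKM or more. Calls use a Benjamini-Hochberg adjusted p under 0.05. Fold changes are 2 to the power of the log2 change, which understates low genes. No batch is named. Ratios between genes were tested with exact two-sided permutation of libraries, adjusted over the 6 ratios or the 36 pairs. Replicates differed by more than counting noise, so none was taken for a library deposited again and each counted as 1 sample, which does not show that they are separate cultures. The 9 genes and all lists were chosen with earlier results of these data known. Named genes were the 9, Uhrf2, every tested gene of the branch, accessory, donor and relative lists, the 3 largest of the mevalonate and SREBP lists, and the 5 closest profiles, though some genes and 3 of the 6 ratios are not reported here; marker genes and overlapping neighbours are named beside results they touch. Symbols came from GENCODE M21, with coordinates 1-based, and 35574 of 35709 identifiers had a symbol. In matches of at least 300 bases at 90% identity to transcripts of other genes, Sc5d matched 1 predicted gene. Tm7sf2 matched its overlapping neighbour Vps51 (100% over 532 bases, 56.0 FPKM). Lbr matched Dnah14 (100% over 440 bases), which averaged 0.009 FPKM. Alternatives were 4 scalings, 2 pseudocounts, 2 filters, the FPKM column, limma without trend, a replicate block and leaving out libraries.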

Additional observations from a re-analysis of the deposited data

How the results depend on the processing

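Over 18 alternatives, 9 of 9 enzyme genes stayed called and their largest adjusted p was 0.0074 (limma, Hsd17b7). Their median log2 change ranged from 0.96 to 1.03, that of Uhrf2 from -1.69 to -1.64, and the number past 1.5-fold was 6 or 7 and past 2-fold 3 to 5, with 4 where Msmo1 fell short, as when scaled to equal totals (1.99-fold). Genes called ranged from 5973 to 7435, and from 6010 to 7047 with 1 library left out. Without replicate 1 of both groups, an alternative chosen after seeing the data, 7241 were called. The main fit did not pair samples by replicate number. Same-numbered libraries deviated together with correlations of 0.176, 0.236 and 0.0657, against -0.219 to 0.0167 for libraries of different numbers. Whether same-numbered libraries shared a batch was not tested. With the replicate block 7248 genes and 9 enzyme genes were called, against 6919 genes without it, and the 3 reported ratios kept their values with an exact sign-flip p of 0.25, the smallest that 3 pairs allow. A tested value counted as unchanged if it kept direction and side of the threshold. Counts had to stay within 1.5-fold, and the median change of the 9 had to move less than the spread between libraries. The exact p of a ratio cannot go below 0.10, so only its direction could change. By these rules 663 of 695 values over 40 results were unchanged and 5 changed sign. Those 5 were all of Cyb5r1, which was not called, at -0.013 both scaled to equal totals and on log2(FPKM + 1) and -0.041 to 0.063 with 1 library left out; the cause was not tested. Other scalings moved the median of all genes only between -0.02 and 0.01. Depth does not limit the 9 genes, each with at least 670 estimated reads, but 3 libraries per group limit every exact permutation test of a ratio to p = 0.10.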
